A study of Mus musculus with 14 samples.

Results

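Accessible chromatin was examined around 8 genes of the retinoid pathway while GATA6 was induced in mouse embryonic stem (ES) cells. The genes were the retinoic acid receptors Rara, Rarb and Rarg, their partner Rxra, and the handling genes Stra6, Crabp2, Dhrs3 and Cyp26a1. ATAC-seq, in which a transposase inserts adapters into open DNA, gave 1 list of peaks for each of 14 libraries, with 2 libraries at each of 7 time points. Overlapping peaks (at least 1 bp) were joined across libraries, which gave 124598 regions, of which 92572 lay within 50 kb of a protein-coding transcription start site (TSS). The 87 regions whose nearest such TSS belonged to one of the 8 genes are described here: 18 at Rara, 16 at Dhrs3, 12 at Rarb, 11 at Rarg, 10 at Rxra, 9 at Cyp26a1, 8 at Stra6 and 3 at Crabp2. Coordinates are those of GRCm38, counted from 1, with GENCODE M21 annotation.

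All libraries came from a single KH2 line labelled C57BL/6, in which 1 transgene under a doxycycline (Dox)-responsive bidirectional promoter drives FLAG-tagged GATA6 and DsRed2. The transgene was therefore present at every time point, including 0 h. Cells at 0 h were in serum-free 2i/LIF medium without Dox. Cells for 2, 4 and 8 h were moved to serum medium with LIF and Dox at 1 µg/mL, and those for 16, 24 and 48 h received the same Dox for 12 h and then none. Each library was made from 50000 cells. No library came from serum medium without Dox, so the change of medium and the induction cannot be told apart in a comparison with 0 h. Nothing in the labels says that the 2 libraries of a time point came from separate cultures, so p-values measure the spread between libraries, which may be technical.

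Retinol enters cells through STRA6, the membrane receptor for retinol-binding protein, and is oxidised to retinal and then to retinoic acid. DHRS3 reduces retinal back to retinol, CRABP2 delivers retinoic acid to nuclear receptors, and CYP26A1 oxidises retinoic acid for disposal. The retinoic acid receptors RARα, RARβ and RARγ pair with retinoid X receptors such as RXRα on direct repeats of a hexamer, and Rarb and Cyp26a1 are textbook targets with such repeats close to their start sites. Retinoic acid is widely used to differentiate ES cells, and GATA6 drives them towards primitive endoderm (PrE), the lineage that lines the yolk sac.

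The direct repeats found in these regions are shown first, since the receptors of this pathway are known to bind such repeats. A repeat was sought in the 300 bp around the centre of each region, on both strands, as a pair of hexamers in the same orientation, each being AGGTCA, its variant AGTTCA, the form GGGTCA or the form GGTTCA, spaced by 1, 2 or 5 bases (DR1, DR2 and DR5). Of the 87 regions, 6 held at least 1 repeat (6.90%), against 0.708% of all 124598 regions. DR5 repeats alone were in 5 of 87 (5.75%), against 0.188% of all. Of the 7 repeats, 6 are printed 5′ to 3′ on their own strand, with the hexamers in capitals. A match is a description of letters and not evidence of binding.
Rarb promoter DR5, chr14:16575513-16575529, minus strand: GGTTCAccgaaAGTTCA
Cyp26a1 promoter DR5, chr19:37697776-37697792, minus strand: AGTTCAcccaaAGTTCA
Cyp26a1 upstream DR5, chr19:37695909-37695925, plus strand: GGGTCAcaggcGGGTCA
Dhrs3 intron DR5, chr4:144898375-144898391, plus strand: GGGTCAcagagAGGTCA
Rarg intron DR5, chr15:102250817-102250833, minus strand: GGTTCAaagtgAGGTCA
Rarg intron DR1, chr15:102250828-102250840, minus strand: AGGTCAgGGTTCA
The Rarg repeats share 1 hexamer, so that 3 hexamers stand in a row. In the RefSeq table of promoters (250 bases before to 50 after each start, GRCm38.p6), 7 of the 8 genes were matched, with 17 start sites. Repeats were found in 2 of these 17, the Rarb and Cyp26a1 starts, against 0.588% of all 32851 promoters. The Rarb repeat begins 53 bases before its RefSeq start. It lies downstream of the GENCODE start at 16575543, the one nearest to the midpoint of its region.

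Longer stretches are given for the regions around these repeats, and for the region gained at Cyp26a1 with the most GATA motifs, because both kinds of motif can be read in them together. Capitals mark the hexamers of direct repeats and the GATA motifs AGATAA, its variant AGATAG, the form TGATAA and the form TGATAG on either strand. The Cyp26a1 promoter stretch stops at the base before the annotated start. Only the Rarb repeat itself is shown because its whole 300 bp window, repeat included, lies in annotated exons.
Cyp26a1 upstream of the start, chr19:37697659-37697797, plus strand: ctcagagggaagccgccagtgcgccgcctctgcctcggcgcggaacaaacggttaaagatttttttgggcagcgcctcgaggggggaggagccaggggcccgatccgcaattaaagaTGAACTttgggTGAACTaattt
Cyp26a1 1882 bp upstream, chr19:37695767-37696066, plus strand: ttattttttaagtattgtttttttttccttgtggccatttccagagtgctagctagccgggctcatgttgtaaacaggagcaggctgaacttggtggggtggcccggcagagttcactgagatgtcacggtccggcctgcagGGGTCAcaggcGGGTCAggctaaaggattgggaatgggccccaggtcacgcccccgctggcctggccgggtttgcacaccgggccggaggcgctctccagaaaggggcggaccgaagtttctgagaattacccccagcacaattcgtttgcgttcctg
Cyp26a1 20875 bp downstream, chr19:37718524-37718823, plus strand: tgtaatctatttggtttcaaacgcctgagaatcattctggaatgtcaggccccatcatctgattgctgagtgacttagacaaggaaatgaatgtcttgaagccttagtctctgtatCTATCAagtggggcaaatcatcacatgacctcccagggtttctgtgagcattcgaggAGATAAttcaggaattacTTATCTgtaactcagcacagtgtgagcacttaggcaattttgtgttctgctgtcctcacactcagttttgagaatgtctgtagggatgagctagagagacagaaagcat
Dhrs3 intron, chr4:144898238-144898537, plus strand: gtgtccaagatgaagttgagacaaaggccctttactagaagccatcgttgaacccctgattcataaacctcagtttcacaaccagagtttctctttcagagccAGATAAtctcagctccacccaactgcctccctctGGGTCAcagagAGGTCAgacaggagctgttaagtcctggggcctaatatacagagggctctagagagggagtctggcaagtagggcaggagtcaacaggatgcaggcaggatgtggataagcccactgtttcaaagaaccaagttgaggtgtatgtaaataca
Rarg intron, chr15:102250623-102250922, minus strand: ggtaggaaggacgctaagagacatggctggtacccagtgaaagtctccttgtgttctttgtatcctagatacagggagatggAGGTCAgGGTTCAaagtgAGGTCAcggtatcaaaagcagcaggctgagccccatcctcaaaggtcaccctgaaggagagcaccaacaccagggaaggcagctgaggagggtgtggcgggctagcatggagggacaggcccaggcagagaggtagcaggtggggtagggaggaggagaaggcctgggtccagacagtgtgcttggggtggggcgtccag
The region gained 20875 bp downstream of the Cyp26a1 start held 3 GATA motifs, and the stretch 1882 bp upstream and the promoter stretch held none.

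Peak numbers ran from 55588 to 65073, with the most in the second 16 h library, and the lists gave no read counts, so sequencing depth was unknown. A region absent from a list may have been open below that library's calling threshold. Between 31 and 48 of the 87 regions were called in a library (35.6% to 55.2%), while 41.6% to 50.3% of all regions were. The 16 h libraries had the most regions called near the retinoid genes, 48 and 45, and called 46.9% and 50.3% of all regions, the second being the largest share of any library. At PrE genes Gata4, Sox17, Sox7 and Pdgfra, 27 of 59 regions were gained (45.8%) and 5 lost (8.47%) at 48 h against 0 h. At the ES cell genes Nanog, Sox2, Esrrb, Klf4 and Pou5f1, 13 of 84 were gained (15.5%) and 20 lost (23.8%). Over all regions 14.5% were gained and 16.6% lost. Most of the loss at ES cell genes was at Esrrb, with 4 of 36 gained and 12 lost. Klf4 went the other way, with 6 of 16 gained and 1 lost. Nanog and Sox2 each had 1 gained and 2 lost, and Pou5f1 had 1 and 3. At Cdx2, Elf5, Hand1, T, Mesp1, Pax6 and Neurog2, genes of trophoblast, mesoderm and neural cells, 8 of 55 regions were gained and 11 lost. Regions were called in both 0 h libraries at each of the ES cell genes, and also at each of the PrE genes and the other genes named here.

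At 48 h the retinoid genes gained and lost equal numbers of regions. Gained regions were those called by both libraries of a time and by none of 0 h, lost regions the opposite, and shared regions those that all 4 libraries called. Of the 87 regions, 17 were gained at 48 h (19.5%, against 14.5% of all regions) and 17 were lost (19.5%, against 16.6%), while 10 were shared (11.5%, against 18.7%). The 51 receptor regions divided into 10 gained and 13 lost, and the 36 regions of the handling genes into 7 gained and 4 lost. No p-value is given, as an exact two-sided test of 2 against 2 libraries cannot go below 0.333. Against 2 h, when cells were already in serum medium with Dox, 15 regions were gained (13.4% of all regions were) and 15 were lost (17% of all).

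From 4 h to 16 h more regions were gained than lost near the retinoid genes. The same was true over all regions at each of these times, so this direction was not particular to these genes. The numbers gained against 0 h were 4 at 2 h (8.64% of all regions), 10 at 4 h (10.1% of all), 12 at 8 h (11.1% of all), 14 at 16 h (13.3% of all) and 10 at 24 h (11.6% of all). The numbers lost were 5 at 2 h (6.25% of all), 4 at 4 h (7.37% of all), 9 at 8 h (9.99% of all), 6 at 16 h (9.71% of all) and 11 at 24 h (13.2% of all). These comparisons share the 0 h libraries. Between 8 and 16 h, the interval in which Dox was withdrawn, 8 regions came into both libraries from neither (5.63% of all regions) and 3 went (3.48%). From 16 to 24 h only 1 came, at Rarb (2.4% of all), and 8 went (6.09% of all). At 2 h the shares rest on few regions: counts without 1 library ran from 6 to 10 gained, the highest without the first 2 h library, and from 6 to 9 lost, with 9 without the first and 8 without the second 0 h library. The 4 regions lost at 4 h became 8 without the second 4 h or the first 0 h library and 7 without the second 0 h library.

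**Figure D1:**
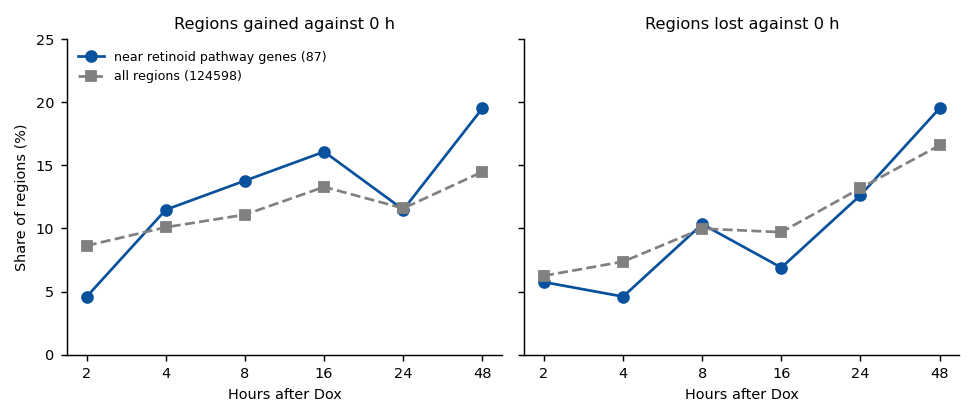
Share of regions gained (left) or lost (right) against 0 h at each later time, in percent, for the 87 regions near retinoid pathway genes (blue) and all 124598 regions (grey). The blue share gained is below the grey at 2 h and above it at 48 h, 19.5% against 14.5%, and both shares lost are highest at 48 h.

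A trend over time was tested for each region called in 2 to 12 libraries by comparing the ranked times of libraries with and without the call (exact permutation test, two-sided), with Benjamini-Hochberg adjustment across the 79559 regions tested. Of the 59 regions near the retinoid genes that could be tested, 8 rose (13.6%, against 12.1% of regions tested) and 7 fell (11.9%, against 12.3%). At an unadjusted p under 0.05 in the same exact test, 17 pointed up (28.8%, against 22.9% of regions tested) and 15 pointed down (25.4%, against 23.7%). A region called by both 48 h libraries alone, or by all but those, cannot pass, since its smallest adjusted p in the exact test is 0.0541. The counts were 13 and 12 without the first 0 h library, and 4 fell without the first 24 h library. The test was rerun over all regions each time, so calls over the whole table can move too. Those counts are not given here. Rara, Rarb, Rxra, Stra6 and Cyp26a1 had regions that rose, and Rara, Rarb, Rarg, Rxra and Stra6 had regions that fell. No region of Crabp2 or Dhrs3 passed in either direction.

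**Figure D2:**
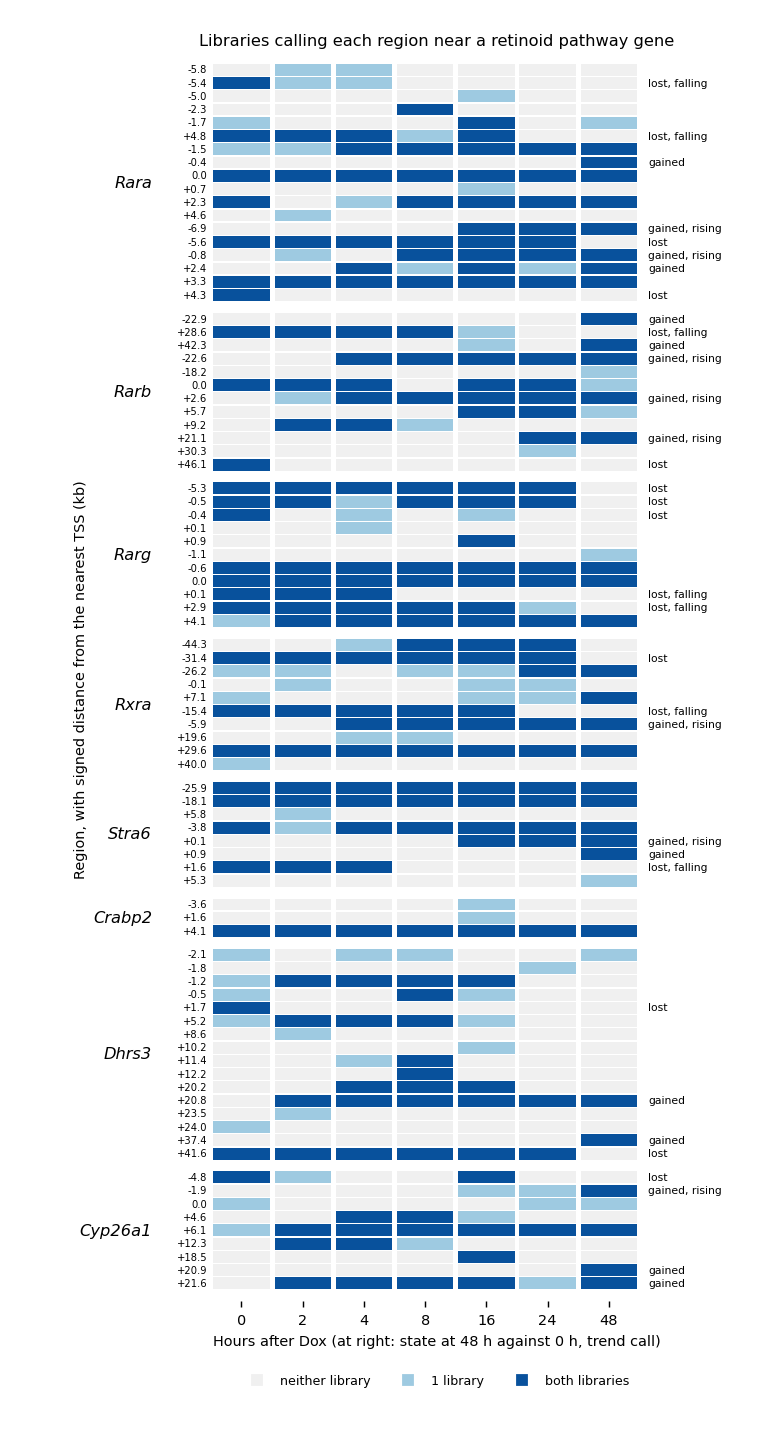
Each row is 1 of the 87 regions, ordered along its gene in the direction of transcription, with its signed distance from the nearest TSS in kb at left. Columns are hours after Dox, and colour gives whether neither, 1 or both libraries called the region. Rarg rows lose calls towards 48 h with none marked gained, Rarb rows mostly gain them, and Dhrs3 has a block of rows called around 8 h.

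Rara, which encodes the broadly expressed receptor RARα (ENSMUSG00000037992, chr11:98927818-98974942, plus strand), had 4 regions gained and 4 lost. Its region over an internal start, chr11:98937467-98937932, was called in all 14 libraries. Downstream, chr11:98953320-98953753 was called in both libraries of 16, 24 and 48 h and in no earlier library, and this intronic region rose (exact permutation test, adjusted p = 0.013). The region chr11:98959462-98959807, 778 bp upstream of another Rara start, was called in 1 library at 2 h and both libraries from 8 h on, and also rose (exact permutation test, adjusted p = 0.0338). The intronic region chr11:98962467-98963112 was called in both libraries at 4, 16 and 48 h, and chr11:98937231-98937380, 393 bp upstream of the internal start, in both 48 h libraries and no other. Neither passed the trend test, with adjusted p = 0.103 and 0.0541 in the exact test.

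The Rara regions that were lost went at different times. The one at chr11:98922358-98922561, in an untranslated exon of the neighbouring gene Cdc6, appeared in both 0 h lists and in 1 list each of 2 and 4 h, and fell (exact permutation test, adjusted p = 0.0451). Its peaks ranked low by score within those lists, at percentiles from 5.63 to 14.4. The intronic region chr11:98932423-98932914 was called in both libraries of 0, 2, 4 and 16 h and 1 of 8 h, and fell (exact permutation test, adjusted p = 0.0338). In contrast, chr11:98964430-98964917 was called in both 0 h libraries only, and chr11:98954295-98955327 in every library except those of 48 h. A transient region, chr11:98925348-98925659, was called in both 8 h libraries and in no other.

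Rarb, which encodes RARβ and is itself induced by retinoic acid in many cells (ENSMUSG00000017491, chr14:16430839-16819156, minus strand), gained 5 of its 12 regions and lost 2. The promoter region chr14:16575183-16575926, which holds the DR5 shown above, was called in both libraries of 0, 2, 4, 16 and 24 h, in neither at 8 h and in 1 at 48 h. It showed no trend (exact permutation test, adjusted p = 0.571). Of its gained regions 4 lay in introns. One at chr14:16597969-16598839, 22577 bp upstream of the nearest start, was present in both lists of every time from 4 h on and rose (exact permutation test, adjusted p = 0.013), and chr14:16554072-16554856 was called in both libraries of 24 and 48 h alone and rose with the same adjusted p. Another, chr14:16572631-16573261, 2597 bp downstream of the promoter start, was called in 1 library at 2 h and both from 4 h, and rose (exact permutation test, adjusted p = 0.0451).

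Towards the 5′ end of the gene, chr14:16790163-16790683 was called in both libraries of 0, 2, 4 and 8 h and 1 of 16 h, and fell (exact permutation test, adjusted p = 0.013). Beside it, chr14:16776508-16776870 was called in 1 library at 16 h and both at 48 h, and chr14:16841694-16842333, upstream of the first start, in both 48 h libraries only. The intronic region chr14:16529148-16529675 was called in both 0 h libraries and nowhere else. A transient region, chr14:16566069-16566534, was called in both libraries of 2 and 4 h and 1 of 8 h. None of its regions was shared between 0 h and 48 h in all 4 libraries.

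Rarg, which encodes RARγ, a receptor abundant in ES cells (ENSMUSG00000001288, chr15:102234938-102257517, minus strand), lost 5 of its 11 regions by 48 h and gained 0. The region over an internal start, chr15:102243228-102243685, was called in both libraries of 0, 2 and 4 h and in none from 8 h on, and it fell (exact permutation test, adjusted p = 0.013). Downstream of that start, chr15:102240407-102241011 was called in both libraries through 16 h and 1 of 24 h, and fell (exact permutation test, adjusted p = 0.0451). The region upstream of the first start of the gene, chr15:102257654-102258361, was called in both libraries of every time but 4 h (1 library) and 48 h (neither). The next region out, chr15:102262633-102262917, was called in every library except the 2 of 48 h. The region with the overlapping DR1 and DR5, chr15:102250615-102250929, was called in both 0 h libraries and in 1 library each of 4 and 16 h.

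At 1 internal start of Rarg the calls were kept. The adjoining regions chr15:102246300-102246655, over an internal start, and chr15:102246750-102247472, 611 bp upstream of it, were called in all 14 libraries. The remaining regions within 1 kb of a start were called in few lists: chr15:102249312-102249531 in both 16 h libraries and chr15:102250078-102250472 in 1 library at 4 h. Rarb gained more regions than it lost and Rarg only lost them, but the difference between the genes was not tested, since regions of a gene are not replicates.

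Rxra, the retinoid X receptor that partners all of these receptors (ENSMUSG00000015846, chr2:27676440-27762957, plus strand), gained 1 of its 10 regions and lost 2. The region at the first start, chr2:27676098-27676569, was called in 1 library each of 2, 16 and 24 h and in none of the other times. In the introns, chr2:27703076-27703726 was present in both lists of every time from 4 h on and rose, and chr2:27693327-27694525 was present in both lists of every time up to 16 h and fell (exact permutation test, adjusted p = 0.013 for each). Upstream, chr2:27644603-27645552 was called in all libraries but those of 48 h, and chr2:27631772-27632424 was transient, in 1 library at 4 h and both at 8, 16 and 24 h. The 2 regions with a trend lay 15366 and 5891 bp upstream of the same start and changed in opposite directions.

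Stra6, which takes up retinol and whose name derives from its induction by retinoic acid (ENSMUSG00000032327, chr9:58063788-58153996, plus strand), had a gained and a lost region around its internal starts. The region over one start, chr9:58131704-58132200, was called in both libraries of 16, 24 and 48 h and in no earlier library, and rose (exact permutation test, adjusted p = 0.013). Its peaks ranked low by score within the lists of 16 h (percentiles 10.4 and 10.3) and 24 h (7.84 and 8.19). In the 48 h lists they ranked high (82.5 and 85.0). Close by, chr9:58132634-58132901 was called in both 48 h libraries alone. At 1644 bp downstream of the next start, chr9:58136139-58136769 was called in both libraries of 0, 2 and 4 h and in no later library, and fell (exact permutation test, adjusted p = 0.013). At 8 h neither of the regions with a trend was called. The 2 farthest regions upstream, inside the gene Ccdc33, were called in all 14 libraries.

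Crabp2, the carrier of retinoic acid to its receptors (ENSMUSG00000004885, chr3:87948666-87953376, plus strand), had no called region within 1 kb of its start in any library, the nearest midpoint being 1639 bp away. Its region over an exon, chr3:87952253-87953317, 4119 bp downstream of the start, was called in all 14 libraries. The other 2 regions were each called in 1 library of 16 h.

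Dhrs3, the retinal reductase that limits retinoic acid formation (ENSMUSG00000066026, chr4:144892827-144928209, plus strand), had most of its calls around 8 h. The region nearest to its start, chr4:144892118-144892492, was called in both libraries only at 8 h and in 1 library each of 0 and 16 h. Intronic regions at chr4:144904423-144904632, chr4:144905147-144905569 and chr4:144913163-144913496 were transient, with both 8 h libraries calling each of them and no library of 0, 2, 24 or 48 h. The intronic region with the DR5, chr4:144898120-144898655, was called in 1 library at 0 h, both at 2, 4 and 8 h, 1 at 16 h and none at 24 and 48 h, and did not pass the trend test (exact permutation test, adjusted p = 0.103). This region is outside the rule for named regions and was chosen after its values were seen, for its repeat.

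The 2 regions gained at Dhrs3 lay 20807 and 37379 bp from the start, and the 2 lost 1717 and 41625 bp from it. The intronic region chr4:144913682-144914207 was absent from both 0 h libraries and called in all 12 later ones, which the exact test places at an adjusted p of 0.0541. Beyond the gene, chr4:144930312-144930721 was called in both 48 h libraries alone, and chr4:144934410-144935115 in all libraries but those. The nearer of the lost regions, chr4:144894707-144895001 was called in both 0 h libraries and in none after.

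Cyp26a1, the enzyme that clears retinoic acid (ENSMUSG00000024987, chr19:37697798-37701536, plus strand), gained 3 of its 9 regions and lost 1. The promoter region chr19:37697574-37698043, with its DR5, was called in only 3 libraries, 1 each of 0, 24 and 48 h. The region 1882 bp upstream, chr19:37695788-37696045, with the other DR5, was called in 1 library at 16 h, 1 at 24 h and both at 48 h, and rose (exact permutation test, adjusted p = 0.0451). Downstream, chr19:37719039-37719823 was called in neither 0 h library, both libraries of 2, 4, 8, 16 and 48 h and 1 of 24 h. The neighbouring chr19:37718517-37718829, with 3 GATA motifs, was called in both 48 h libraries alone.

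Several Cyp26a1 regions came and went in between. Downstream of the gene, chr19:37709848-37710369 was called in both libraries of 2 and 4 h and 1 of 8 h, and chr19:37716059-37716526 in both 16 h libraries alone. The lost region, chr19:37692815-37693247, lies in a coding exon of Cyp26c1, the next gene of the same family, and was called again in both libraries at 16 h. Over all 8 genes 10 regions were transient (11.5%, against 13.9% of all regions).

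The number of regions called per gene gave the spread between libraries directly. Dhrs3 had 3 and 6 called regions at 0 h, 5 and 5 at 2 h, 5 and 7 at 4 h, 9 and 8 at 8 h, 6 and 5 at 16 h, 3 and 2 at 24 h and 2 and 3 at 48 h. The 8 h libraries had its highest counts. How many of all genes show such a separation at some time was not counted. Cyp26a1 had 2 and 2 at 0 h, 3 and 4 at 2 h, 4 and 4 at 4 h, 3 and 4 at 8 h, 5 and 5 at 16 h, 2 and 3 at 24 h and 5 and 4 at 48 h, and the values at 24 h overlapped with those at 0 h. Rarg had 8 and 7 at 0 h, 7 and 7 at 2 h, 6 and 9 at 4 h, 6 and 6 at 8 h, 7 and 8 at 16 h, 5 and 6 at 24 h and 3 and 4 at 48 h, its lowest. Rarb had 3 and 3 at 0 h and 5 and 8 at 48 h, its highest mean but with a gap of 3 regions between the libraries. Rara had between 6 and 9 in all libraries except those of 16 h, which had 11 and 11.

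None of these differences passed adjustment. An exact permutation test of the share of the sum of squares between time points (one-sided, over all 135135 ways to pair the 14 libraries) gave p = 0.0129 for Dhrs3, 0.0210 for Cyp26a1, 0.0355 for Rarg, 0.0359 for Rara and 0.0416 for Rarb. After Benjamini-Hochberg adjustment over 16158 genes the smallest of these was 0.0899, for Dhrs3, and 0 of the 8 genes passed. Nor did any of the 16158 genes, whose smallest adjusted p in this exact test was 0.0517. At an unadjusted p under 0.05 stood 5 of the 8 genes and 28% of all genes. Crabp2 (exact p = 0.0769), Stra6 (exact p = 0.135) and Rxra (exact p = 0.530) were above that level. The second 16 h library also held the most peaks, 65073, against 61857 in the first, and the part of peak number in the values of Rara, Crabp2 and Cyp26a1 at 16 h was not tested.

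**Figure D3:**
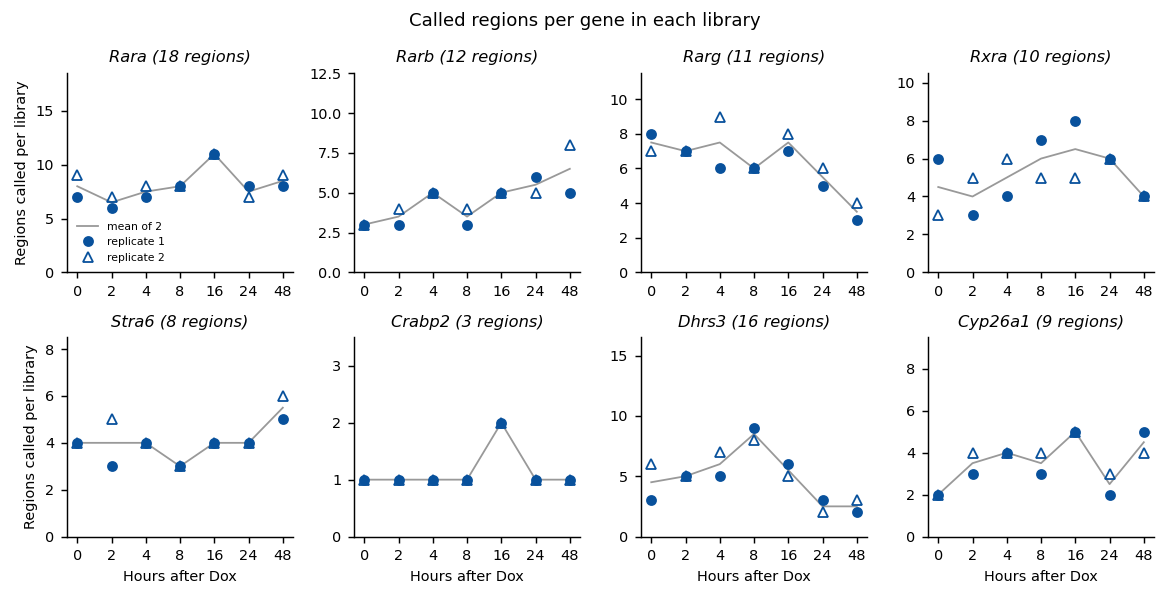
Number of regions called in each library for each gene, against hours after Dox. Filled circles are replicate 1, open triangles replicate 2 and the grey line their mean. Dhrs3 peaks at 8 h with 9 and 8 regions, Rarg is lowest at 48 h with 3 and 4, and Rara and Crabp2 are highest at 16 h.

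For regions called in all 14 libraries, presence says nothing about change, so the rank of the peak score within each list was compared. The score is the unnamed value of the deposited peaks, and its percentile is 100 for the highest peak in a list. Of the 8 such regions (9.20% of the 87, against 15.1% of all regions), 4 differed over time in an exact permutation test with adjustment over 18809 regions, while 35.7% of those regions did. The Rara start region rose from percentiles of 53.7 and 57.1 at 0 h to 69.7 and 73.2 at 2 h, and stood at 73.2 and 74.4 at 4 h, 83.1 and 80.1 at 8 h, 77.5 and 73.5 at 16 h, 91.6 and 80.5 at 24 h and 82.3 and 83.5 at 48 h (exact permutation test, adjusted p = 0.0131). Every later library was above both 0 h libraries. The Crabp2 exon region was at 43.5 and 51.0 at 0 h, 26.9 and 48.0 at 2 h, 59.5 and 45.8 at 4 h, 45.6 and 59.4 at 8 h, 77.1 and 76.7 at 16 h, 85.8 and 79.7 at 24 h and 83.4 and 80.0 at 48 h (exact permutation test, adjusted p = 0.0267). Its values from 16 h on were above those before. How many of the 18809 regions show separations like these was not counted.

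The other 2 regions that passed moved both ways. An intronic Rara region, chr11:98963284-98964093, was at 68.5 and 73.0 at 0 h, 23.3 and 45.0 at 2 h, 39.8 and 48.9 at 4 h, 76.7 and 59.2 at 8 h, 82.9 and 73.9 at 16 h, 83.3 and 83.9 at 24 h and 67.4 and 68.6 at 48 h (exact permutation test, adjusted p = 0.0250). The Stra6 region chr9:58060786-58061639, inside Ccdc33, was at 54.5 and 53.4 at 0 h, highest at 8 h with 67.3 and 69.7, and lowest at 48 h with 35.5 and 43.5 (exact permutation test, adjusted p = 0.0336). Leaving out any one library of 24 or 48 h left 1 of the 8 regions past the threshold. The Rarg start region was at 90.0 and 83.6 at 0 h and 68.1 and 65.6 at 48 h and missed it (exact permutation test, adjusted p = 0.158), as did the Rarg region beside it, one Rxra region and the other Stra6 region.

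**Figure D4:**
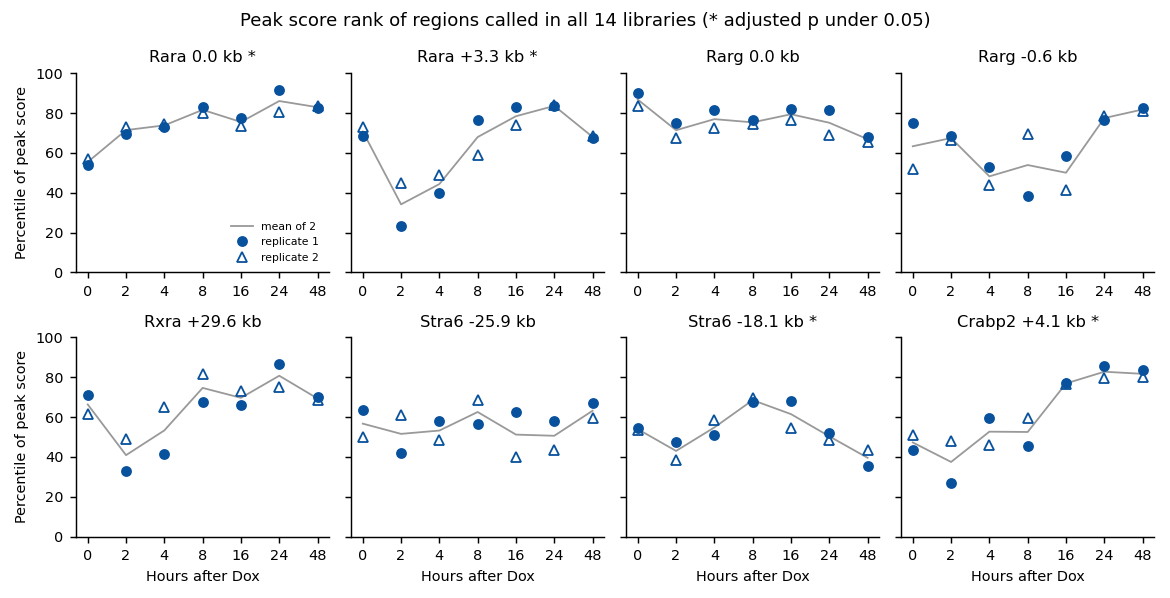
Percentile of the peak score within each library, against hours after Dox, for the 8 regions called in all 14 libraries, titled by gene and signed distance from the nearest TSS. Filled circles are replicate 1, open triangles replicate 2 and the grey line their mean; an asterisk marks an adjusted p under 0.05. The Rara start region and the Crabp2 region stand higher at 48 h than at 0 h, and the Rara intronic region is lowest at 2 h.

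GATA motifs were read in the same 300 bp windows, since GATA6 is the induced factor. These windows reach past regions shorter than 300 bp. They were present in 37 of the 87 regions (42.5%, against 45.1% of all regions). Of the 17 regions gained at 48 h, 14 had one in the window (82.4%, against 67.9% of all gained regions). Of the 17 lost, 2 did (11.8%, against 32.5% of all lost regions). In the gained Stra6 region chr9:58132634-58132901 the only motif of the window, at 58132625-58132630, lay outside the region. Among the 10 shared regions 1 held a GATA motif (25.4% of all shared regions did). Over whole regions rather than windows, 13 of 17 gained regions held one (76.5%, close to the 74.5% of all gained regions), and 6 of 17 lost (35.3%, against 55.1% of all lost). Direct repeats were in 1 of the 17 gained regions, the Cyp26a1 region 1882 bp upstream (0.642% of all gained), in 1 of the 17 lost, the Rarg intron region (0.831% of all lost), and in 0 of the 10 shared (0.48% of all shared). Median GC content was 54.3% in the windows near retinoid genes and 50.3% in all.

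**Figure D5:**
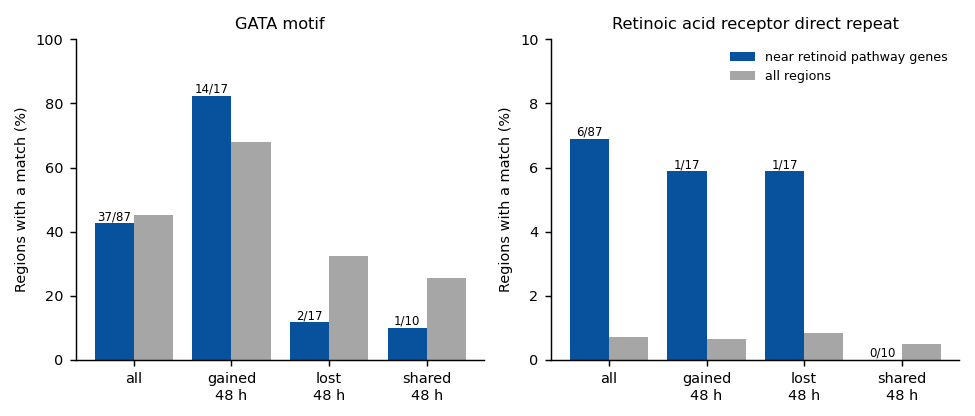
Share of regions with a GATA motif (left) or a direct repeat (right) in the 300 bp window, in percent, for regions near retinoid pathway genes (blue, with counts) and all regions (grey), split by state at 48 h against 0 h. GATA motifs are in 14 of 17 gained and 2 of 17 lost regions near these genes, and the 2 axes have different ranges.

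By position, 17 of the 87 regions had their midpoint within 1 kb of the nearest start (19.5%, against 16.3% of all regions). Midpoints lay in introns for 51 regions, between genes for 23 and in exons for 13. Of all 87, 6 lay inside another protein-coding gene only, such as the Rara regions in Cdc6 and the Stra6 regions in Ccdc33. A total of 17 regions were called in 1 library only (19.5%, against 17.9% of all).

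The other genes of the pathway, 39 in number with 328 regions, had 52 regions gained (15.9%) and 54 lost (16.5%) at 48 h, beside 14.5% and 16.6% of all regions. By role, 2 of 17 regions of the receptors Rxrb and Rxrg were gained and 1 lost, and the coregulators had 25 of 135 gained and 23 lost. The synthesis and storage genes had 9 of 47 gained and 8 lost, the binding and transport genes 4 of 34 and 7, the catabolic genes Cyp26b1 and Cyp26c1 2 of 12 and 1, and genes known as retinoic acid targets 10 of 83 and 14. In the trend test 25 of these regions rose and 21 fell, and 0 of the 38 genes tested passed the test of called regions per gene.

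Some of these genes leaned to one side. Meis1, a homeobox gene responsive to retinoic acid, had 5 of 14 regions gained and 0 lost, with 2 and 4 regions called in its 0 h libraries. Crabp1, the second cellular carrier of retinoic acid, had 5 of 8 lost and 0 gained, from 6 and 5 called at 0 h. Tgm2, a transglutaminase induced by retinoic acid, had 1 of 12 gained and 5 lost. Ncoa2 and Ncoa3, coactivators of nuclear receptors, each had 6 regions gained and 2 lost, of 16 and 24. Ncor1, a corepressor that unliganded retinoic acid receptors recruit, had 3 of 25 gained and 6 lost, and the coactivator Ncoa1 had 2 of 21 gained and 5 lost. Ttr, which carries retinol-binding protein in plasma and is made by visceral endoderm, had 3 of 9 gained and 1 lost. Others with at least 3 changed regions were near balance: Nrip1 had 3 gained and 4 lost, Rxrg 2 and 1, Hoxb1 2 and 1, Meis2 1 and 2, and Adh7 1 and 2.

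As a description with no test, the genes whose called regions over the 14 libraries were most like those of each retinoid gene were sought among 9329 genes with at least 4 regions. The closest were Dgkk to Rara (Pearson r = 0.91), Clic5 to Rarb (r = 0.91), Cd80 to Rarg (r = 0.92), Epha10 to Rxra (r = 0.81), Cracr2a to Cyp26a1 (r = 0.89), Kif2a to Stra6 (r = 0.91) and Minpp1 to Dhrs3 (r = 0.92). Crabp2, which varied by only 1 region, had the same pattern as Aacs, Rpn2 and Top1. The points of these correlations share libraries and peak numbers.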

How the data were processed

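ATAC-seq was made from 50000 cells per library, and the authors processed it with the ENCODE ATAC-seq pipeline. The authors deposited 1 peak list per library, from that library alone, with an irreproducible discovery rate filter of 0.05 on pseudoreplicates and a blacklist filter. The last, unnamed column of the deposited lists was read as a score of unknown scale and used only for ranks within a list. The submitters' notes name mm10, GRCm38 and deepTools, without versions. No read counts are given, so depth, and any interval that needs it, is unknown.

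Peaks overlapping by at least 1 bp were merged, and each of the 124598 regions was given to the gene whose transcript start was nearest to its midpoint within 50 kb (54374 starts of 21842 protein-coding genes). A region counted as called with at least 1 bp covered. Trend, gene and score tests were exact permutation tests with Benjamini-Hochberg adjustment at 0.05 over all features, and all were tested on simulated data. Named regions were those within 1 kb of a start, gained or lost at 48 h, with a trend, or transient (both libraries of a time between and none of 0 h or 48 h). Like genes were the 3 with the highest r, and other pathway genes were named with at least 3 regions changed at 48 h. The genes and lists were chosen with earlier results of these data known. Values of 1 further pathway gene and 1 region are not reported here. Alternatives covered merging, overlap, peak rank, distance, TSS, calling rule, a replicate block and leaving out libraries. Python 3.11.15, numpy 2.4.6, pandas 2.3.3 and matplotlib 3.10.9 were used.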

Additional observations from a re-analysis of the deposited data

Results flagged for a closer look

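Stra6 had more called regions than at 0 h in both libraries of 48 h, by 1.5 regions on average (5.5 against 4), and fewer in both libraries of 8 h, by -1 (3 against 4). The intronic Rara region called in all libraries, chr11:98963284-98964093, ranked above both 0 h libraries in both libraries of 16 h and 24 h, by 7.63 and 12.8 percentile points, and below both in those of 2 h and 4 h, by -36.6 and -26.4. The Rxra region chr2:27739652-27740777, over an exon, was above 0 h in both 24 h libraries by 14.4 points and below it in both 2 h libraries by -25.5. The Stra6 region chr9:58060786-58061639 was above 0 h at 8 h and 16 h by 14.6 and 7.54 points, and below it at 2 h, 24 h and 48 h by -11.0, -3.59 and -14.4. These cases were picked by a rule: both libraries of one time on one side of both 0 h libraries, both of another on the other side. The pattern is therefore given by the choice. The share of all genes or regions that meet this rule was not counted. The difference between the times was not tested, and all of these values share the 0 h libraries.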

How the results depend on the processing

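Depth was unknown, libraries were 2 per time, and a missing peak need not mean closed chromatin. Of the alternatives to counts of regions or genes, 149 of 184 stayed within 1.5 times the reported value. These include counts of 0 that stayed at 0, as for genes passing the gene test in all 14 runs without 1 library. Using the 50000 top-scored peaks of each list, 18 regions rose, 11 fell and 2 genes (Rara and Dhrs3) passed the gene test, while in all 15956 regions rose, 15446 fell and 884 genes passed. With each gene's 5′ end as its TSS, 10 of 64 regions were gained at 48 h, 3 rose and 4 fell. This choice leaves the calls over all regions as they were. Within 20 kb, 9 of 66 were gained at 48 h against 0 h and 9 against 2 h, and within 100 kb 1 gene, Rarb, passed the gene test, as did 834 genes in all. Measured as base pairs covered, 4 genes passed it (Rarb, Cyp26a1, Crabp2 and Dhrs3), as did 4056 genes in all. By percentile of peak width 2 of the 8 regions passed, and without the 0 h libraries 3 regions rose. Counts over all regions under these 2 settings are not given here. When 1 library sufficed for a call, 23 regions were lost at 48 h against 2 h, and 12 were gained and 12 lost by 2 h against 0 h, and 16 and 18 by 24 h. By that rule 11 were lost by 4 h, 14 by 8 h and 10 by 16 h, and 23 were gained by 16 h. Changes over all regions were not counted by that rule, so these counts have no share of all regions beside them. The cause was not tested.

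Leaving out 1 library gave 6 to 10 regions gained and 6 to 9 lost at 2 h, and 4 to 8 lost at 4 h. It gave 6 to 13 rising, 4 to 12 falling and 1 to 5 of the 8 score regions. Counts over all regions without 1 library are not given here. The score change of the intronic Rara region at 48 h, -2.75 points, became 33.9 without the 0 h libraries, where it was taken against 2 h, and 27.2 for peak width. That of the Stra6 region inside Ccdc33, -14.4, became 42.3 for peak width. That of the Rara start region, 27.5, became 11.5 against 2 h without the 0 h libraries and 12.2 for peak width. The Rara start region passed the threshold in neither of these settings.

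Of 646 repeats of the values for single regions and genes, 3 changed the sign of a value that had passed the threshold. Of the others, 564 kept their side of the threshold, 71 no longer passed it and 8 newly passed it. Values for genes have no sign, and a sign change in a value that had not passed was counted as kept. The score change of the Rxra region chr2:27739652-27740777, for example, ran from -12.7 to 28.4. Among the 15 regions with a trend, 7 passed in every repeat that gave a value: 1 of Rara (chr11:98953320-98953753), 2 of Rarb (chr14:16554072-16554856 and chr14:16790163-16790683), 1 of Rarg (chr15:102243228-102243685), 1 of Rxra (chr2:27693327-27694525) and the 2 of Stra6. The Rara region chr11:98922358-98922561 failed in 12 repeats and passed in 9. The Rarg region chr15:102240407-102241011 failed in 11 and passed in 11. The Rarb region chr14:16572631-16573261 failed in 10 and passed in 11. The Cyp26a1 region chr19:37695788-37696045 failed in 9 and passed in 13. The rest failed in 1 to 3 repeats each.

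Libraries of the same replicate number did not deviate together (correlations from -0.0152 to 0.0124 over 21 pairs of times). These correlations cannot show whether such libraries shared a culture or a preparation. Under the replicate block 7 regions rose, 5 fell, 0 genes and 3 score regions passed. Counts over all regions and genes under the block are not given here. Counting changes in at least 1 pair with none the other way gave 26 regions gained at 48 h. The share of all regions gained by this looser rule was not counted, so the 26 cannot be set beside it.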
